A study of Mus musculus with 4 samples.

Results

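Both arms of a pair of lymphocyte hairpins are described here, mmu-miR-150-5p, mmu-miR-150-3p, mmu-miR-342-3p and mmu-miR-342-5p (written below without the species prefix mmu). They were picked by exact name from a table of 1073 mature mouse miRNAs. All 4 were listed there, and all 4 had a base mean (the authors' mean normalised count over all libraries) of at least 10, as did 482 of the 1073. The small RNA came from naive CD4+ T cells of wild type mouse spleen, kept in 1640 medium. Cells transfected with ASO (2 samples) were set against cells transfected with CRO, the control in the series text (2 samples), and both groups were then stimulated through CD3 and CD28 for 48 h. The names ASO and CRO are not expanded in the labels, which also give neither strain nor age. Nothing says that samples sharing a treatment were separate mice or cultures. A p-value therefore reflects only how these samples vary, which may be technical.

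A miRNA hairpin is cut into a short duplex with a strand from its 5′ arm (5p) and a strand from its 3′ arm (3p), and usually 1 strand is kept by an Argonaute protein while the other is degraded. miR-150 is abundant in mature resting T and B lymphocytes, falls when they are activated, and is best known for repressing Myb, a transcription factor of lymphocyte progenitors. miR-342 is likewise enriched in lymphocytes and other blood cells and is made from an intron of Evl, a gene for a regulator of actin filaments. miR-155, in contrast, is induced through the antigen receptor and serves here as the mark of activation. No sample without activation was analysed here, so the fall of miR-150 and miR-342 on activation was not measured, only their level after it.

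RefSeq mature sequences (GRCm38.p6) were found for 3 of the 4 members and are shown because the seed, bases 2 to 8 in capitals, is the part that pairs with targets. miR-155-5p is added because the members are set against it below.
miR-342-3p: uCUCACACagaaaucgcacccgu
miR-342-5p: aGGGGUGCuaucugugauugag
miR-150-3p: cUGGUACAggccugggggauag
miR-155-5p: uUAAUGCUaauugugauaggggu

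Of the 890 miRNAs of the table that matched a RefSeq mature sequence, 0 others shared the seed of miR-342-3p, miR-342-5p or miR-150-3p, so none of these 3 had a seed relative among the matched miRNAs. The hairpin of miR-342 lies at chr12:108658620-108658718 on the plus strand (GRCm38), where the GENCODE annotation places it inside 5 transcripts of Evl and outside their exons. It is shown to set the arms side by side, with the bases of miR-342-5p and then those of miR-342-3p in capitals.
Mir342 hairpin: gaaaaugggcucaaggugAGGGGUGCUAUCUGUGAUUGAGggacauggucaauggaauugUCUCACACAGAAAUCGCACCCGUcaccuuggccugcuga

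The arms are 22 and 23 bases long and stand 20 bases apart. In the structure predicted by RNAfold, 17 base pairs join them. miR-150-3p lies at chr7:45121798-45121819 on the plus strand (GRCm38), within Mir150 and, in the same annotation, within no other gene. These positions belong to GRCm38, whereas the submitters' processing notes name mm9.

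The files give a mean per group, from whose digits the count in each library was decoded. Totals came to 10192717 and 10483405 counts in ASO libraries but 5617699 and 3300457 in CRO libraries. The decoded libraries cannot be matched to the numbered samples and are called a and b, where a has the larger size factor (the divisor that scales a library for depth). CRO library b, the shallowest, stood apart for 3 of the 4 members, as described below. Markers listed for lymphocytes and for activation were prominent throughout. The 5 lymphocyte markers were miR-150-5p, miR-342-3p, both arms of miR-142a, and miR-181a-5p. All were counted and together made up 15.7% to 17.8% of a library, and miR-155-5p and miR-21a-5p 22.7% to 27.1%. Much of the first share was miR-142a, a miRNA of all blood cells, so it does not mark lymphocytes alone. miR-142a-3p made up 6.87% to 9.41% of a library, miR-150-5p 1.95% to 4.91% and miR-342-3p 0.732% to 1.30%. Both arms of miR-223, the myeloid markers, summed to at most 0.122% of a library, and the erythroid markers miR-451a, miR-144-3p and miR-486a-5p to at most 0.0406%. Of the muscle, liver and epithelial markers, miR-1a-3p was at 0 in 3 libraries. In contrast, miR-200c-3p (normalised count 1509 to 2537) and miR-122-5p (25.1 to 84.4) were counted in every library. These last 2, the only markers of that list with a base mean of at least 10, summed to at most 0.0432%.

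miR-150-5p, the main product of its hairpin, was the most counted member. Its normalised count (count divided by the library's size factor) was 185064 and 143851 under ASO, and 156811 and 291025 under CRO. CRO library b was the highest and ASO library b the lowest, and the other libraries of each group lay between them, so the groups overlapped. The authors' means were 164458 in ASO and 223918 in CRO, which placed it 10th in ASO and 9th in CRO among 1073 miRNAs and gave it 2.41% and 3.42% of the summed means. The log2 ratio of ASO over CRO was -0.45 and did not pass (adjusted p = 1, authors' deposited table). Fewer cells holding a miRNA and less of it per cell cannot be told apart in such bulk samples.

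miR-342-3p, the main product of miR-342, stood at 60948 and 54269 in ASO and 52564 and 77083 in CRO. Again CRO library b was the highest, while CRO library a was the lowest, so the groups overlapped. It ranked 22nd in ASO and 20th in CRO, and the authors' deposited table gave a log2 ratio of -0.17 (adjusted p = 1). miR-342-5p, the strand kept less often, stood at 3679 and 2989 in ASO and at 3044 and 4645 in CRO. Its order of libraries was that of miR-150-5p, with CRO library b highest and ASO library b lowest, and its log2 ratio in the authors' deposited table was -0.21 (adjusted p = 1).

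miR-150-3p, the strand of miR-150 that is rarely kept, was the least counted member and the only 1 of the 4 whose groups did not overlap. Its counts were 120 and 113 in ASO and 80 and 62 in CRO, which are 73.8 and 79.5 against 102.3 and 111.4 after normalisation. Both ASO values lay below both CRO values. Over the 482 miRNAs such a separation was found in this direction for 18.7% and in either direction for 41.9%. The authors' deposited table gave a log2 ratio of -0.48 (adjusted p = 1). Its depth is small: the 95% exact Poisson interval of the smallest count, 62, runs from 47.5 to 79.5. Intervals of this kind cover counting error only, since reads copied by PCR are not independent molecules.

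**Figure D1:**
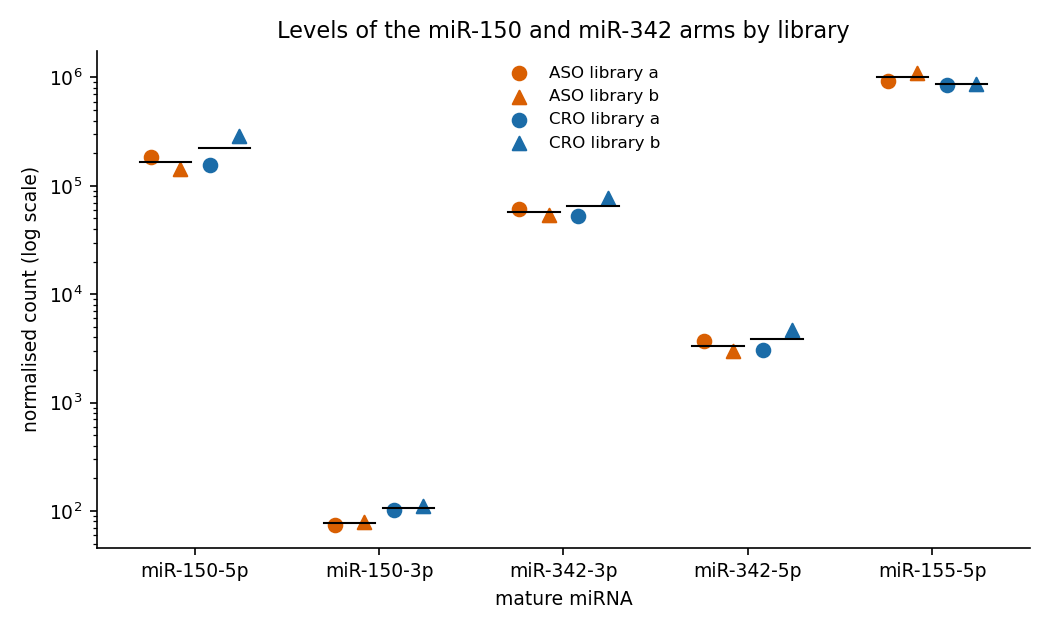
Normalised count (log axis) of the 4 members and of miR-155-5p in each decoded library, with ASO in orange, CRO in blue, library a as circles and library b as triangles; black bars are the authors' group means. CRO library b is the highest for miR-150-5p (291025), miR-342-3p (77083), miR-342-5p (4645) and miR-150-3p (111.4).

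Ordered by level, the members were miR-150-5p, miR-342-3p, miR-342-5p and miR-150-3p in every library, and the ranges over the 4 libraries of neighbours in that order did not touch. The closest were miR-150-5p, never below 143851, and miR-342-3p, never above 77083. In the order of the whole table, the miRNAs next to a member were not separated from it: let-7a-5p, a differentiation-linked miRNA next above miR-150-5p, ran from 228039 to 262825, and let-7i-5p next below it from 116378 to 216804. Likewise miR-92a-3p of the miR-17-92 cluster, next above miR-342-3p, ran from 54013 to 79977, and miR-93-5p, next below, from 41676 to 63508. miR-106b-3p (3200 to 4881) and miR-669c-5p (2871 to 3842) enclosed miR-342-5p, and miR-6236 (48.6 to 167) and miR-467c-3p (57.5 to 123) enclosed miR-150-3p. Levels of different miRNAs are normalised counts here, not corrected for how well each is captured in a library.

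All 4 members had a log2 ratio below 0, and 0 of 4 passed the authors' adjusted p threshold of 0.05. Of the 1073 miRNAs, 1.21% passed it, 1.12% lower and 0.0932% higher in ASO. The count was also 0 of 4 at an unadjusted p under 0.05, where 2.8% of the table passed. A limma fit of the decoded libraries likewise called 0 of 4, with 0 at an unadjusted p under 0.05, while it called 2.9% of 482 miRNAs lower in ASO and 0.207% higher. In that fit the log2 ratio was -0.39 ± 0.33 (SE) for miR-150-5p, -0.47 ± 0.28 for miR-150-3p, -0.15 ± 0.26 for miR-342-3p and -0.18 ± 0.27 for miR-342-5p. Both arms of a hairpin come from 1 transcript, so the 4 ratios are not 4 independent observations. Over the 482 miRNAs the median log2 ratio was 0.041, and 46.9% lay below 0.

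The sign of the ratio rested on CRO library b for 3 of the members. Without it the log2 ratio in the limma fit was 0.06 for miR-150-5p, 0.13 for miR-342-3p and 0.12 for miR-342-5p, the opposite sign, and -0.41 for miR-150-3p, and 0 of 4 passed in a fit that called 4.77% of miRNAs lower and 1.66% higher. Without CRO library a it was -0.83 for miR-150-5p, which then passed (limma, adjusted p = 0.042), in a fit that called 6.64% of miRNAs lower and 6.43% higher. The others were -0.53 for miR-150-3p, -0.42 for miR-342-3p and -0.49 for miR-342-5p in that fit, and did not pass. Without ASO library b the ratios were -0.21 for miR-150-5p, -0.53 for miR-150-3p, -0.06 for miR-342-3p and -0.03 for miR-342-5p, and without ASO library a -0.57, -0.42, -0.23 and -0.33. No member passed in either fit, where 2.07% and 0.83% of miRNAs were called lower and 0.0% higher. A fit without 1 library assumes that the lone library of its group varies like the group that keeps both.

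**Figure D2:**
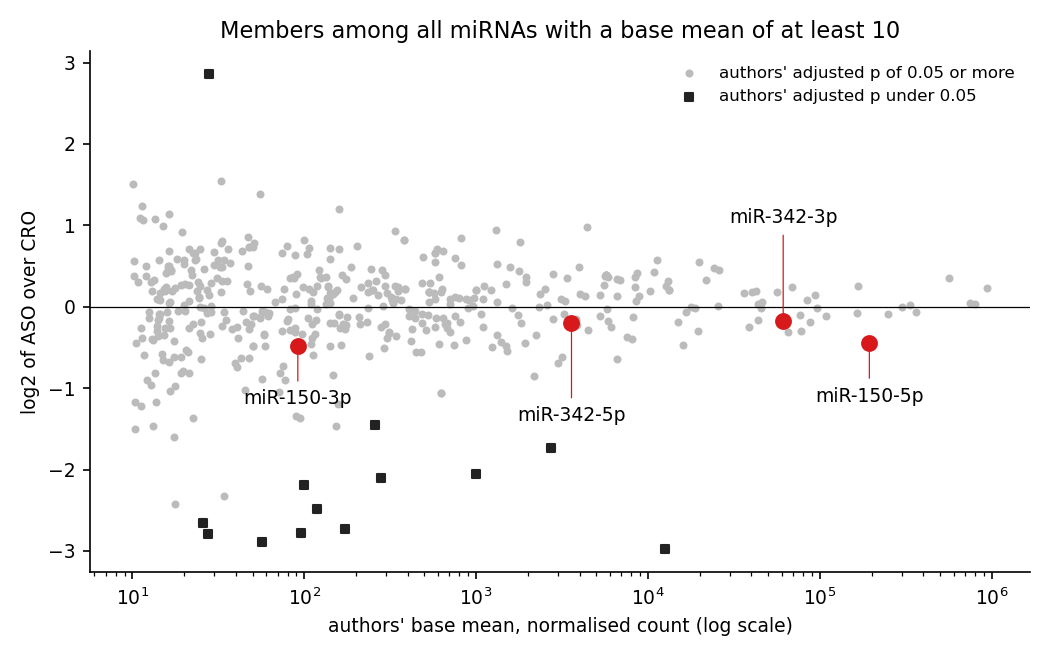
Log2 of the authors' ASO mean over CRO mean against the authors' base mean (log axis) for 482 miRNAs, with members in red and the authors' calls as black squares. The members lie at -0.45, -0.48, -0.17 and -0.21, inside the band of miRNAs that were not called.

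The spread within the CRO group was large for 3 of the members. miR-150-5p was 1.86-fold higher in CRO library b than in CRO library a, miR-342-5p 1.53-fold and miR-342-3p 1.47-fold, against 1.09-fold for miR-150-3p. In ASO the higher library exceeded the lower by 1.29-fold, 1.23-fold, 1.12-fold and 1.08-fold for the same 4. The spread of miR-150-5p in CRO was exceeded by 17 of the 120 miRNAs whose base mean reached 1000, that of miR-342-5p by 27 and that of miR-342-3p by 41. The median absolute log2 ratio between libraries over these 120 miRNAs was 0.36 in CRO and 0.22 in ASO, so CRO libraries differed more from each other in general.

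The members were next described by the ratio of their arms, which does not depend on how a library is scaled. For miR-342 this ratio was nearly constant. miR-342-3p exceeded miR-342-5p by 16.6-fold and 18.2-fold in the ASO libraries and by 17.3-fold and 16.6-fold in the CRO libraries. The 95% exact binomial intervals, which cover counting error only, ran from 16.1 to 17.0 and 17.6 to 18.7 in ASO and from 16.6 to 18.005 and 15.9 to 17.3 in CRO. ASO library b was the highest and ASO library a the lowest, so the groups overlapped, and the intervals of these extremes did not touch. The highest library exceeded the lowest by 1.10-fold, a range that was the 4th smallest among 135 hairpins with both arms at a base mean of at least 10. The median range of these hairpins was 0.86 on the log2 scale, against 0.13 for miR-342. The hairpins were not matched for the counts of their lower arm, and low counts can widen this range.

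For miR-150 the arms were far more unequal and the ratio less well measured. miR-150-5p exceeded miR-150-3p by 2508-fold and 1810-fold in ASO and by 1533-fold and 2613-fold in CRO. The highest and the lowest value were both in CRO, so the groups overlapped. With only 62 to 120 counts of the 3p arm, the 95% exact binomial intervals were wide, from 1231 to 1933 for CRO library a and from 2038 to 3408 for CRO library b, which do not touch. Among the 135 hairpins, the inequality of the miR-150 arms ranked 7th in ASO and 6th in CRO, whereas that of miR-342 ranked 55th and 58th. The 5p arm was the higher in both groups for 76 hairpins, as in miR-150, and the 3p arm for 53, as in miR-342.

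Between the groups the log2 arm ratio (main over minor arm, from the authors' means) differed by 0.034 for miR-150 and 0.035 for miR-342, ASO minus CRO. The pooled SD between libraries of a group was 0.45 and 0.072 (n = 2 per group), larger than either difference. Neither difference kept its sign when 1 library was left out. For miR-150 it was 0.48 without CRO library b, -0.29 without CRO library a, 0.33 without ASO library b and -0.14 without ASO library a. For miR-342 it was 0.10 without ASO library a, -0.03 without ASO library b, 0.06 without CRO library a and 0.0062 without CRO library b. A limma fit over all 135 arm ratios, chosen after the data were seen, gave differences in log2 of the 5p over the 3p arm of 0.09 ± 0.38 (SE) for miR-150 and -0.03 ± 0.12 for miR-342, each with an adjusted p of 0.96. It called neither, nor did the groups of either separate, while 0.741% of hairpins were called and 31.1% had groups that did not overlap. The exact two-sided permutation test over the 4 libraries gave p = 1 for both, where 2 libraries against 2 allow no p below 0.333.

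**Figure D3:**
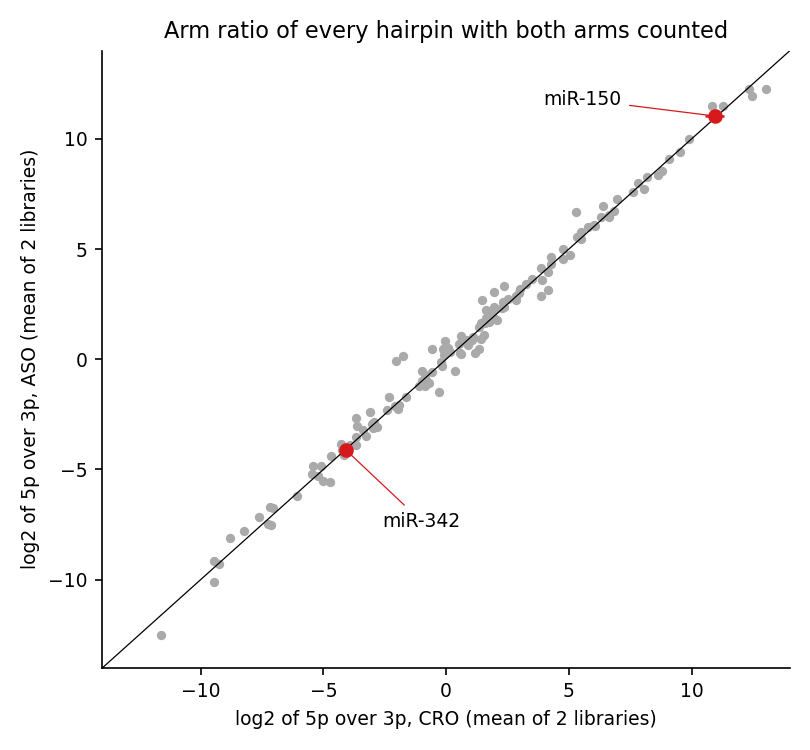
Log2 of the 5p over the 3p arm in ASO against the same in CRO (each the mean of 2 decoded libraries) for the 135 hairpins with both arms at a base mean of at least 10; the line marks equal ratios, and red bars run from the lower to the higher library. miR-150 (11.04 in ASO, 10.95 in CRO) and miR-342 (3p arm higher, by 4.12 in ASO and 4.08 in CRO) lie close to the line.

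Set against miR-155-5p in the same library, the main arms gave a picture led by the same CRO library. miR-155-5p itself stood at 937056 and 1092052 in ASO and at 854191 and 876434 in CRO, so that both ASO values lay above both CRO values, as they did for 23.2% of miRNAs. The authors' deposited table gave it a log2 ratio of 0.23 (adjusted p = 1). miR-150-5p amounted to 19.7% and 13.2% of miR-155-5p in ASO and to 18.4% and 33.2% in CRO. CRO library a lay between the ASO libraries, and CRO library b above all. miR-342-3p amounted to 6.50% and 4.97% in ASO and to 6.15% and 8.80% in CRO, in the same order of libraries.

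From the authors' means the ratio to miR-155-5p was 16.2% in ASO and 25.9% in CRO for miR-150-5p, a log2 difference of -0.67, and 5.68% and 7.49% for miR-342-3p, a difference of -0.40. For miR-342-5p the difference was -0.44. The pooled SD between libraries was 0.52, 0.32 and 0.39 for these 3 (n = 2 per group), and the exact two-sided permutation test gave p = 0.667 for each. For miR-150-3p the difference was -0.71 with a pooled SD of 0.071, and the groups did not overlap, as in the same direction for 30.4% of 481 miRNAs set against miR-155-5p. Its exact permutation p was 0.333, the smallest that 2 libraries against 2 allow.

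The limma fit of ratios to miR-155-5p, chosen after the data were seen, called none of the 4 (adjusted p = 0.47 for miR-150-5p, 0.41 for miR-150-3p, 0.67 for miR-342-3p and 0.64 for miR-342-5p), and 0 of 4 had an unadjusted p under 0.05, while 4.16% of 481 miRNAs were called lower and 0.208% higher. Without CRO library b the log2 difference of miR-150-5p to miR-155-5p was -0.19, that of miR-342-3p -0.11, that of miR-342-5p -0.12 and that of miR-150-3p -0.66, and no member passed where 5.82% of miRNAs were called lower and 0.416% higher. Without CRO library a they were -1.04, -0.63, -0.69 and -0.74 in the same order. Without ASO library b the first 3 were -0.32, -0.18 and -0.15, and without ASO library a -0.91, -0.57 and -0.67, again with no member called, where 2.08% and 2.7% of miRNAs were called lower and 0.0% higher. In the fit without CRO library a miR-150-5p passed (limma, adjusted p = 1.75e-05) and the other 3 did not, where 8.52% of miRNAs were called lower and 2.29% higher.

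The choice of reference changed the size of the difference. CRO library b carried most of the difference for miR-150-5p, miR-342-3p and miR-342-5p. For miR-150-3p this held only relative to miR-21a-5p. Relative to miR-142a-3p, a miRNA of all blood cells, miR-150-5p stood at 32.5% and 20.7% in ASO and 27.0% and 71.5% in CRO. Relative to miR-16-5p, which restrains the cell cycle, it stood at 24.9% and 16.4% against 18.4% and 39.8%, and relative to miR-21a-5p, another miRNA induced on activation, at 30.7% and 15.8% against 15.8% and 61.7%. In each case CRO library b was the highest, and CRO library a lay between the ASO libraries for the first 2 of these references and level with the lower of them for miR-21a-5p. miR-21a-5p itself was 2.10-fold lower in CRO library b (471938) than in CRO library a (990720), opposite to miR-150-5p. The log2 difference of miR-150-5p from the authors' means was -0.80 with miR-142a-3p, -0.48 with miR-16-5p and -0.49 with miR-21a-5p, and for miR-342-3p it was -0.52, -0.20 and -0.22. With all libraries no member passed against any of the 4 references. The share of all miRNAs called in such a fit is given here for miR-155-5p only (4.16% lower, 0.208% higher). For the other references this result therefore stands without a base rate. Without CRO library a, all 4 members passed relative to miR-142a-3p (limma, adjusted p from 2.25e-06 to 0.0174), where 23.9% of miRNAs were called lower and 0.416% higher. In the same way miR-150-5p passed relative to miR-16-5p (limma, adjusted p = 0.0151), where 4.78% were called lower and 1.46% higher, and no member passed relative to miR-21a-5p, where 2.29% were called lower and 0.0% higher. Without CRO library b these differences became smaller or turned. No member passed in these fits, which called 3.12%, 2.49% and 0.0% of miRNAs lower with miR-142a-3p, miR-16-5p and miR-21a-5p, and 0.416%, 0.416% and 0.0% higher. The log2 difference of miR-150-5p was then -0.05 with miR-142a-3p, 0.13 with miR-16-5p and 0.48 with miR-21a-5p. For miR-342-3p it was 0.02, 0.21 and 0.55, for miR-342-5p 0.01, 0.20 and 0.54, and for miR-150-3p -0.52, -0.34 and 0.0069.

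**Figure D4:**
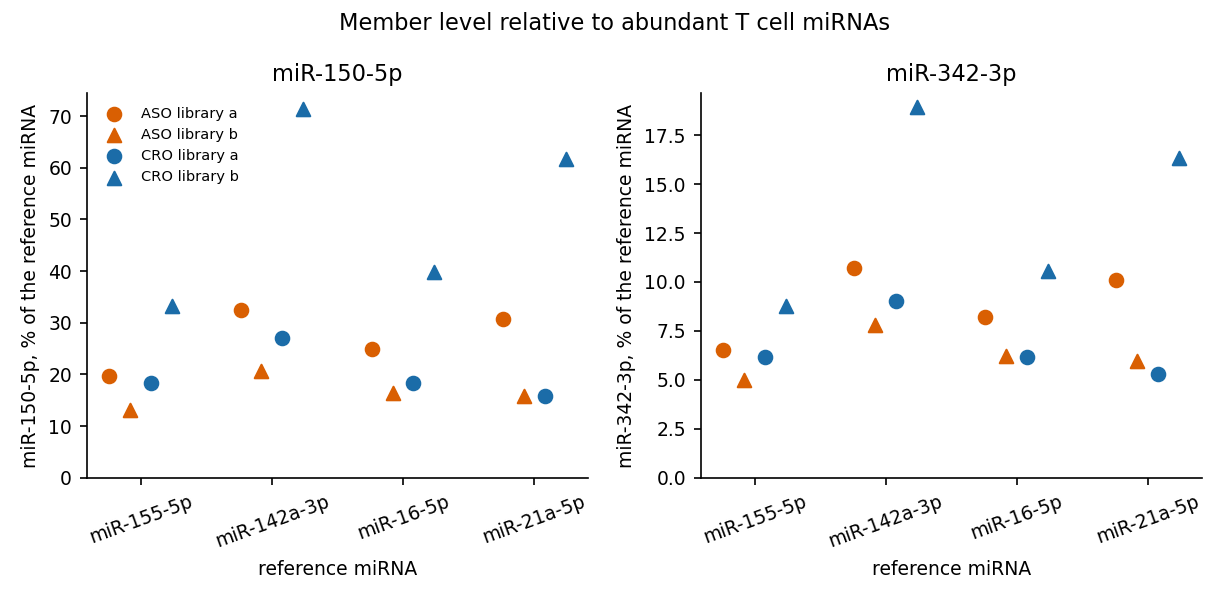
miR-150-5p (left) and miR-342-3p (right) as a percentage of each of 4 abundant miRNAs in each decoded library, with ASO in orange, CRO in blue, library a as circles and library b as triangles. CRO library b is the highest in every column, from 33.2% of miR-155-5p to 71.5% of miR-142a-3p for miR-150-5p, and the other 3 libraries lie below it.

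The main arms of the hairpins were both highest in CRO library b, but did not move in a fixed proportion. The lowest library was ASO library b for miR-150-5p and CRO library a for miR-342-3p. miR-150-5p exceeded miR-342-3p by 3.04-fold and 2.65-fold in ASO and by 2.98-fold and 3.78-fold in CRO, so the excess was greatest in CRO library b. As a description, likeness was measured over the 4 libraries as the Euclidean distance between log2 values centred on each miRNA's mean, for base means of 1000 or more. For miR-342-3p the nearest were miR-106b-3p (distance 0.054), miR-342-5p (0.108), let-7b-5p (0.112) and miR-132-3p (0.134), and miR-150-5p ranked 21 of 119 (0.37). For miR-150-5p the nearest were miR-1198-5p (0.24), miR-125a-5p (0.27) and miR-139-5p (0.31), with miR-342-5p ranked 3 of 119 (0.29) and miR-342-3p ranked 10 (0.37). The likest, miR-106b-3p, stood at 3856 and 3311 in ASO and 3200 and 4881 in CRO. These distances rest on 4 libraries, and a library's depth and scaling are shared by all miRNAs in it.

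A list of miRNAs reported to fall on T cell activation held 20 names with the 4 members, all of them above the base mean of 10. Of these, 15 had a log2 ratio below 0 and 5 above, with a median of -0.18, beside the 46.9% and 0.041 over all 482. The 15 include all 4 members, so the list is not independent of them. The count below 0 was 12 in the limma fit of all libraries, and 11 without CRO library a or without CRO library b. Without ASO library a it was 13, and without ASO library b 16. None passed the authors' adjusted p or an unadjusted p under 0.05, and limma called 0 of the 20. In 2 of the 20 both ASO libraries lay below both CRO libraries, and in 1 above, beside 18.7% and 23.2% of all miRNAs. The lowest were miR-181a-5p (log2 ratio -0.65), a miRNA that sets T cell receptor sensitivity, miR-125b-5p (-0.51), linked to the naive state, and miR-150-3p. The highest were miR-100-5p (0.50), miR-29b-3p (0.47), which restrains interferon-gamma production, and miR-30b-5p (0.07), and for each of these 6 the authors' deposited table gave an adjusted p of 1. miR-181a-5p, the other miRNA of the list without overlap below CRO, stood at 4946 and 5277 in ASO and 7143 and 8874 in CRO.

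Of 21 miRNAs reported to rise on activation, 15 had a log2 ratio above 0 and 6 below, with a median of 0.37. For 12 of the 21 both ASO libraries lay above both CRO libraries, and for 2 below, beside 23.2% and 18.7% of all miRNAs. The list holds both arms of miR-155 and several miRNAs of the miR-17-92 cluster, so its 21 values are not 21 independent observations. None passed the authors' adjusted p (miR-96-5p and miR-18a-5p had an unadjusted p under 0.05), and limma called 0 of the 21. The highest were miR-96-5p (log2 ratio 0.98, adjusted p = 0.33), miR-301a-3p (0.94, adjusted p = 1) and miR-18a-5p of the miR-17-92 cluster (0.80, adjusted p = 1), all from the authors' deposited table. The lowest were miR-92a-3p (-0.32), miR-222-3p (-0.13) and miR-31-5p (-0.13). Between the CRO libraries 11 of the 20 reduced miRNAs and 6 of the 21 induced ones were higher in library b, beside 47.9% of all 482.

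**Figure D5:**
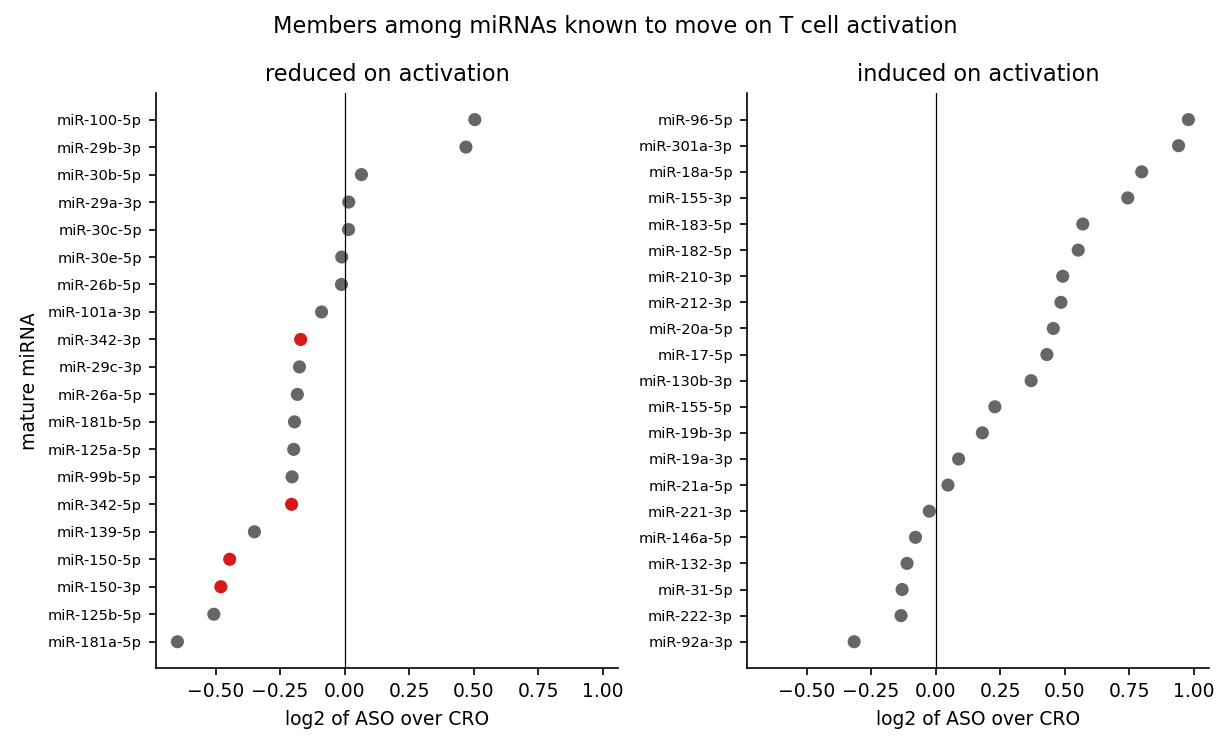
Log2 of the authors' ASO mean over CRO mean for miRNAs reported to be reduced (left, 20) or induced (right, 21) on T cell activation, with the 4 members in red. In the left panel 15 points lie below 0 and in the right panel 15 lie above it, and no point passed the authors' adjusted p.

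The myeloid and erythroid markers had log2 ratios on the same side as the members. The arms of miR-142a, a miRNA of all blood cells, did not, with 0.35 for miR-142a-3p and 0.0006 for miR-142a-5p. Both myeloid and all 3 erythroid markers lay below 0, with medians of -0.47 and -0.67, and in all of them the ASO libraries lay below the CRO libraries. Over all 482 miRNAs 46.9% lay below 0 and 18.7% had ASO libraries below both CRO libraries. None of the 5 passed in the authors' deposited table, where 0 had an unadjusted p under 0.05, or in limma. The summed normalised count was 5599 to 5669 in ASO and 6189 to 7239 in CRO for the myeloid list, and 1313 to 1581 in ASO and 2228 to 2409 in CRO for the erythroid list, with no marker of either list at 0. The endothelial markers, miR-126a-3p and miR-126a-5p, had log2 ratios of 0.28 and 0.24 and summed to 1687 to 2334 in ASO and 1399 to 1935 in CRO. Of the muscle, liver and epithelial markers, 2 of 4 in the table had a base mean of at least 10. These were miR-122-5p with a log2 ratio of 1.39 and miR-200c-3p with -0.44 (adjusted p = 0.76 and 1, authors' deposited table). Together these 2 summed to 1594 to 1810 in ASO and 1913 to 2562 in CRO. The part of other cells in the levels of miR-150 and miR-342 was not tested.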

How the data were processed

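Per the labels' protocols, Trizol was used for RNA and an Illumina TruSeq small RNA kit for libraries. DESeq (no version) and mm9 are what the submitters' processing notes name. The aligner, the miRNA annotation and trimming: not given in the sources used here. Per the file headers, the authors deposited their mean normalised signal (base mean) overall and by group, then a ratio and its log2 (CRO over ASO), then p-values raw and adjusted, for 1073 miRNAs. Ratios were reversed to ASO over CRO. The authors' other deposited table, which counts their differential miRNAs, was not used here.

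A group mean averages 2 counts, both scaled by a size factor, and its digits allowed all 1073 miRNAs to be decoded. For miR-155-5p in ASO 6 splits were possible, and exactly 1 gave back all 4 size factors as median ratios over 636 miRNAs (relative error at most 2.0e-15). Tested on simulated means, decoding returned both counts for 100% of 1073 miRNAs. The authors' adjusted p over their whole table is the main test. The alternative was limma 3.58.1 (R 4.3.3, trend and robust) with Benjamini-Hochberg adjustment on log2(normalised count + 1) of decoded libraries, for base means of at least 10, a scale that understates changes of low miRNAs. In simulated libraries with 200 of 482 miRNAs changed 4-fold, limma called 97.5% of them and 4 others. The same fixed dispersion was used for every simulated miRNA. These changes are larger than those of the members, so the simulation does not say how often changes of the members' size are called. Other software was Python 3.11.15, pandas 2.3.3, numpy 2.4.6, scipy 1.17.1, matplotlib 3.10.9 and ViennaRNA 2.7.2 (RNAfold).

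The members, lists and tests were chosen with earlier results of these data known. The text names the members, 4 reference miRNAs, neighbours in level, nearest patterns, and the 3 lowest and 3 highest of each activation list. Marker miRNAs and the values of miR-181a-5p per library were added after they were seen. Alternatives were other pseudocounts, filters, scalings, references and thresholds, and leaving out each library. The limma fits of arm ratios and of ratios to a reference were added after the data were seen.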

Additional observations from a re-analysis of the deposited data

How the results depend on the processing

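Precision is limited by having 2 libraries in each group, by CRO libraries that differ 1.86-fold for miR-150-5p, and by 62 to 120 counts of miR-150-3p. No paired analysis was possible because group means hold no replicate number. Of 115 alternative values, 106 had the same sign and the same call, or stayed within the spread between libraries. The arm-ratio differences are among those within that spread, although leaving out 1 library moved them from -0.29 to 0.48 for miR-150 and from -0.03 to 0.10 for miR-342. So is the log2 difference of miR-150-5p relative to miR-155-5p without CRO library a. It was -1.04 there, beside -0.67 from the authors' means, and its call changed. The 106 also hold the count of activation-reduced miRNAs below 0, which went from 15 to 11 without CRO library a or without CRO library b. Leaving out 1 library at a time gave log2 ratios from -0.83 to 0.057 for miR-150-5p, from -0.42 to 0.13 for miR-342-3p and from -0.49 to 0.12 for miR-342-5p. The positive ends, 0.057, 0.13 and 0.12, came without CRO library b. The -0.83 came without CRO library a and was the only call among these fits of levels (limma, adjusted p = 0.042, beside 0.74 with all libraries and 0.95 or more without each other library). The cause was not tested. For miR-150-3p the log2 difference relative to miR-155-5p, -0.71, became -0.83 with miR-142a-3p, -0.51 with miR-16-5p and -0.53 with miR-21a-5p. The 1 miRNA higher in ASO by the authors' adjusted p became 4 under the rule of a raw p under 0.05 with 2-fold, and 0 when p was adjusted anew for base means of at least 50, which leaves fewer miRNAs. For miRNAs lower in ASO the count moved by less than 1.5 times.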
